A study of Rattus norvegicus with 12 samples.

Results

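RNA of rat nucleus pulposus cells, which form the soft centre of the intervertebral disc, was sequenced after exosome treatment with and without erastin, and 9 genes for neurotrophic factors, their receptors and secreted nerve guidance proteins are described. The 9 genes are Bdnf, Ntf3, Ngfr, Ntrk2, Gdnf, Sema3a, Sema3c, Slit2 and Ntn1. They were taken by gene name from the deposited table, which held all 9 among 21071 genes, and 8 of the 9 had enough counts to be among the 15650 genes tested. Ntf3, with 0 counts in 11 of 12 libraries, was the one left out.

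All 12 libraries came from cells given exosomes at 50 µg/mL, and each of the 4 groups held 3 libraries. NPPC-Exo are exosomes of nucleus pulposus progenitor cells, and miR-Exo are the same kind of exosome with overexpressed miR-221-3p. Each was given alone or with erastin, an inhibitor of the cystine importer that starts ferroptosis, a form of cell death by iron-dependent lipid peroxidation. Erastin was used at 0.1 to 5 µM for 48 h, and the labels give no dose for a single library. No group without exosomes is among the 12, and strain, age and the number of animals or cultures are not stated, so p-values measure only the spread between these libraries, which may be technical.

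Neurotrophins are secreted proteins that keep neurons alive and draw or hold their axons. BDNF acts through TrkB (Ntrk2), neurotrophin-3 (Ntf3) mainly through TrkC, and all neurotrophins can bind p75 (Ngfr), while GDNF signals through RET with a GFR alpha co-receptor. Class 3 semaphorins bind neuropilins and plexins, Slits bind Robo receptors and netrin-1 binds DCC, neogenin and UNC5 receptors, and these cues attract or repel growing axons and vessels. The healthy nucleus pulposus has neither nerves nor vessels, and neurotrophins from disc cells are known for their part in the nerve ingrowth of painful, degenerate discs. In bulk RNA, fewer cells of a kind and less RNA per cell cannot be told apart.

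The overexpressed microRNA is shown because it is what separates the kinds of exosome, with its seed (bases 2 to 8) in capitals and the position on GRCr8 given by RefSeq as chrX:6023246-6023268, plus strand. Seed sites in the 9 transcripts were not searched for.

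rno-miR-221-3p: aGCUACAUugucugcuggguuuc

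The RefSeq promoter table (GRCr8) held 4 of the 9 genes, with 6 starts for Bdnf, 3 for Ntf3 and 1 each for Gdnf and Sema3c. The 250 bases before a start are printed for the 3 of them that changed with erastin, so that genes that fell (Bdnf, Gdnf) can be read beside one that rose (Sema3c). Capitals mark matches to 3 motifs searched on both strands, the AP-1 site TGANTCA, the cAMP response element core TGACG, and TATAAA, and these motifs do not overlap in the stretches shown. Of 33469 promoter stretches of the same length, 6.34% held TGANTCA, 18.2% TGACG and 12.9% TATAAA. The Bdnf stretch (start 4, chr3:116637608-116637857, plus strand) holds the TGACG core on the opposite strand, first met 35 bases before the start, and Bdnf start 3 (chr3:116621721-116621970, plus strand) holds an AP-1 match 152 bases before it. These starts are shown for their matches: of the other Bdnf starts, 1, 5 and 6 hold no match and start 2 holds TATAAA on the opposite strand 250 bases before it. The Gdnf stretch (chr2:58621077-58621326, plus strand) holds the TGACG core (opposite strand) 49 bases and TATAAA 30 bases before the start. The Sema3c stretch (chr4:18699628-18699877, minus strand) holds none of these letters. Counts per gene do not tell the starts of Bdnf apart.

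Bdnf, start 3: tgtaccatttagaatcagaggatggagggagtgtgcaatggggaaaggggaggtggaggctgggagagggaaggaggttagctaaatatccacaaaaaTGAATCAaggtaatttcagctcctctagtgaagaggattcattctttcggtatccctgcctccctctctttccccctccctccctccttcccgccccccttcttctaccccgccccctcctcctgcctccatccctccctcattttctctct
Bdnf, start 4: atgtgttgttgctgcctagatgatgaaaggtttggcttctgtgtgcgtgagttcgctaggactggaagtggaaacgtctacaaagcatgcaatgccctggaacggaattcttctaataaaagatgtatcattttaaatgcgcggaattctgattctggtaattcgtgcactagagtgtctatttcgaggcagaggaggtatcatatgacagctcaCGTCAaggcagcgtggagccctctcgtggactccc
Gdnf: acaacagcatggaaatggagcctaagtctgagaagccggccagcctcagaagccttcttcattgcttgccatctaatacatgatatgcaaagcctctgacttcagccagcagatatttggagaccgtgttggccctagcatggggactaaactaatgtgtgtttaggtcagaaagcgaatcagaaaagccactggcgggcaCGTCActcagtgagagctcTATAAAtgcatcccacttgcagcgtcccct
Sema3c: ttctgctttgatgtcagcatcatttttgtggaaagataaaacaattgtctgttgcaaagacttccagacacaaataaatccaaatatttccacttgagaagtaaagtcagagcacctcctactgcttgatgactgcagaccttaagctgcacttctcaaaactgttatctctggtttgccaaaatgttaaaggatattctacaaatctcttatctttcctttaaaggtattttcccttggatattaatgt

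Levels of the 9 genes differed widely. On the authors' FPKM scale, which is per length and so allows genes to be compared, Sema3c was highest with a mean level of 47.7 over the 12 libraries, above 91.2% of tested genes. Slit2 (7.94 FPKM), Sema3a (5.48), Bdnf (3.53) and Gdnf (2.19) followed, each above 32.4% to 56.2% of tested genes. Ntn1 stood at 1.12 FPKM and Ntrk2 at 0.593, while Ngfr (0.0475) and Ntf3 (0.00667) were near 0. The mean of Ntn1 came from the erastin libraries (group means of 2.32 and 2.07 FPKM), and without erastin it was at 0.04 and 0.0533 FPKM, under Ntrk2 at 0.383 and 0.51. Levels that follow are CPM on scaled library totals (counts over the total, in units of 1e6 counts), which compare 1 gene between libraries, except where FPKM is written. A gene is said to rise or fall where edgeR's quasi-likelihood test gave an adjusted p (Benjamini-Hochberg, over 15650 genes) under 0.05.

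Erastin with NPPC-Exo raised 2 of the 8 tested genes, Sema3c and Ntn1, and lowered 3, Bdnf, Sema3a and Slit2. Over all genes tested, 43.6% were called in this comparison, 21.5% higher and 22.1% lower. With miR-Exo, erastin raised 4, Sema3c, Ntn1, Ntrk2 and Slit2, and lowered 2, Bdnf and Gdnf, where 49.1% of all genes were called, 24.7% higher and 24.4% lower. The 2 erastin comparisons share no library. The median log2 change of the 8 genes was -0.09 with NPPC-Exo and 0.41 with miR-Exo, beside 0.02 and 0.03 over all tested genes.

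Bdnf, the ligand of TrkB, fell with erastin, and fell further with NPPC-Exo than with miR-Exo. Its level was 25.3, 28.6 and 28.5 CPM with NPPC-Exo alone and 25.8, 28.3 and 29.5 CPM with miR-Exo alone. With erastin it was 11.0, 13.5 and 12.8 CPM with NPPC-Exo and 24.9, 21.7 and 22.3 CPM with miR-Exo. The erastin libraries with NPPC-Exo were lowest, those with miR-Exo lay between them and the unstressed libraries, and only the 2 unstressed groups overlapped. Erastin changed Bdnf by -1.14 ± 0.10 (log2, SE of the fit; 2.21-fold lower, adjusted p = 5.1e-07) with NPPC-Exo. With miR-Exo the change was -0.28 ± 0.10 (adjusted p = 0.0274), a call that was lost without miR-Exo replicate 2 or 3 or erastin miR-Exo replicate 2 or 3 (adjusted p 0.0597 to 0.0984) and whose direction turned to 0.03 with scaling by library size alone. Under erastin Bdnf was 1.85-fold higher with miR-Exo than with NPPC-Exo (log2 0.89 ± 0.10, adjusted p = 2.21e-05), and without erastin the difference was 0.02 ± 0.10 (adjusted p = 0.935). The difference between the erastin effects was itself called, at 0.87 ± 0.14 on the log2 scale (adjusted p = 0.00185).

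**Figure D1:**
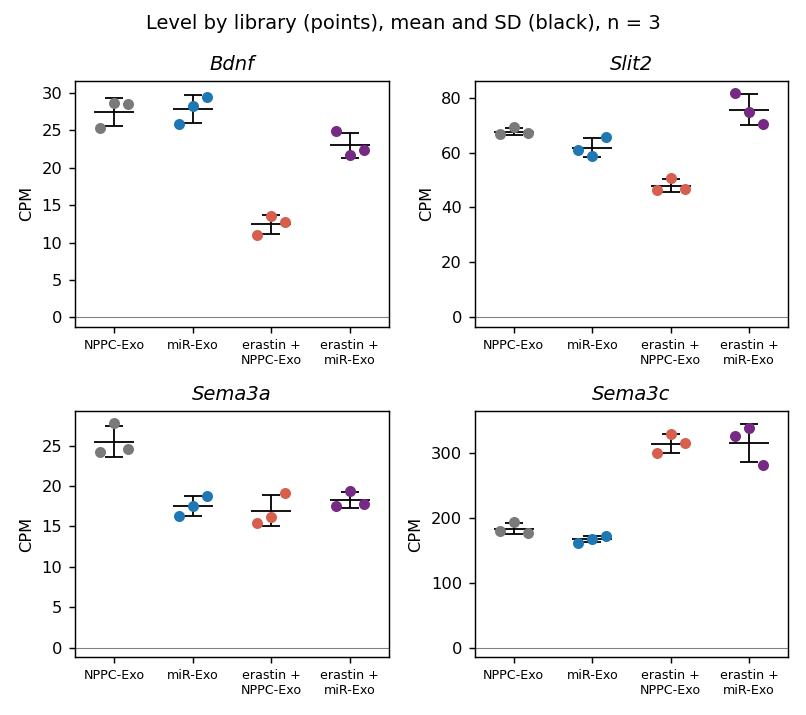
Level of Bdnf, Slit2, Sema3a and Sema3c in each library (y axes: CPM with TMM-scaled totals, each from 0; x axes: group). Points are libraries (3 per group) and bars the mean ± SD; Bdnf and Slit2 are lowest with erastin and NPPC-Exo, Sema3a is highest in NPPC-Exo alone, and Sema3c is higher in every erastin library than in every other.

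Ntrk2 encodes TrkB, the signalling receptor of BDNF. Gene counts do not tell the full-length receptor from the forms without the kinase domain. Its level was 4.80, 4.97 and 4.87 CPM with NPPC-Exo and 7.18, 5.38 and 5.78 CPM with miR-Exo. With erastin it was 6.78, 5.88 and 5.35 CPM with NPPC-Exo and 9.71, 8.47 and 8.43 CPM with miR-Exo. The 3 libraries with both erastin and miR-Exo were the highest, and those with NPPC-Exo alone the lowest. Erastin raised Ntrk2 with miR-Exo (0.54 ± 0.14, adjusted p = 0.00552), and under erastin it was higher with miR-Exo than with NPPC-Exo (0.56 ± 0.14, adjusted p = 0.00732). With NPPC-Exo the erastin change of 0.30 ± 0.14 missed the threshold (adjusted p = 0.103), and it was called with library size alone as the scaling (0.58, adjusted p = 0.0029) and with limma on log2(FPKM + 1) and log2(FPKM + 0.1) (0.18 and 0.47, adjusted p = 0.0172 and 0.0273). The erastin effects on Ntrk2 were not called different between the kinds of exosome (0.24 ± 0.20, adjusted p = 0.48).

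Ngfr, the p75 receptor shared by all neurotrophins, had 11, 4 and 4 counts with NPPC-Exo and 0, 0 and 16 with miR-Exo. Under erastin it had 10, 27 and 16 counts when NPPC-Exo was given and 12, 16 and 4 when miR-Exo was. The groups overlapped, apart from 2 miR-Exo libraries at 0, and the third of these stood at 0.252 CPM. The highest value, 0.408 CPM, came from an erastin library with NPPC-Exo, and 3 counts, the limit set by a count of 0, stood for 0.044 to 0.0565 CPM. No comparison of Ngfr passed the test (adjusted p 0.437 to 0.928), and differences are not detectable at this depth. Without the third miR-Exo library the erastin change with miR-Exo was called (adjusted p = 0.0106), against a group then at 0. Ntf3, neurotrophin-3, had 8 counts (0.145 CPM) in the third NPPC-Exo library and 0 in all others.

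Gdnf, the ligand of the RET pathway, was a low transcript with 58 to 188 counts in a library. It stood at 1.84, 1.60 and 1.45 CPM with NPPC-Exo and at 3.24, 2.09 and 2.17 CPM with miR-Exo. With erastin it was 1.06, 0.877 and 1.56 CPM with NPPC-Exo and 1.45, 1.39 and 0.941 CPM with miR-Exo. The miR-Exo libraries were above all others, and the remaining groups overlapped. Erastin lowered Gdnf with miR-Exo by a log2 change of -0.99 ± 0.28 (adjusted p = 0.0107), but without the highest miR-Exo library the change was -0.76 (adjusted p = 0.0571), and with library size alone -0.68 (adjusted p = 0.0513). With NPPC-Exo the change was -0.48 ± 0.28 (adjusted p = 0.202), and the test of the difference gave -0.51 ± 0.40 (adjusted p = 0.455).

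Slit2, a secreted ligand of Robo receptors that repels many axons, moved in opposite directions with erastin under the different exosomes. It stood at 66.6, 69.2 and 67.1 CPM with NPPC-Exo and at 61.1, 58.6 and 65.6 CPM with miR-Exo. With erastin it was 46.4, 50.6 and 46.7 CPM with NPPC-Exo and 81.7, 74.8 and 70.5 CPM with miR-Exo. The 4 groups did not overlap, with erastin and miR-Exo on top and erastin and NPPC-Exo at the bottom. Erastin changed Slit2 by -0.50 ± 0.07 with NPPC-Exo (adjusted p = 3.84e-05) and by 0.29 ± 0.07 with miR-Exo (adjusted p = 0.0024). The difference of these effects was 0.79 ± 0.09 (adjusted p = 0.000465), and under erastin Slit2 was higher with miR-Exo by 0.66 ± 0.07 (adjusted p = 1.18e-05). Without erastin the kinds of exosome did not pass the test (-0.13 ± 0.07, adjusted p = 0.239).

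Sema3a, a repellent of sensory axons that binds neuropilin-1, was highest in the NPPC-Exo libraries, at 24.2, 27.8 and 24.5 CPM. It was 16.3, 17.5 and 18.7 CPM with miR-Exo. With erastin it was 15.5, 16.2 and 19.2 CPM with NPPC-Exo and 17.5, 19.4 and 17.8 CPM with miR-Exo. The NPPC-Exo libraries lay above the other 9, which overlapped between groups. Erastin lowered Sema3a with NPPC-Exo (-0.59 ± 0.10, adjusted p = 0.000267). With miR-Exo the change was 0.06 ± 0.10 (adjusted p = 0.668), which was called with library size alone (0.36, adjusted p = 0.00626) and with limma on log2(FPKM + 1) and log2(FPKM + 0.1) (0.30 and 0.35, adjusted p = 0.0135 and 0.0123). Without erastin Sema3a was lower with miR-Exo than with NPPC-Exo (-0.54 ± 0.10, adjusted p = 0.00383), the only one of the 8 genes called there, where 10.7% of all genes were called, 4.15% higher and 6.52% lower. Under erastin that difference was 0.10 ± 0.10 (adjusted p = 0.468), and the erastin effects differed by 0.65 ± 0.14 (adjusted p = 0.0104).

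Sema3c, a class 3 semaphorin known to guide cardiac neural crest cells and to attract some axons, rose with erastin whatever the exosome. It stood at 180.1, 193 and 177 CPM with NPPC-Exo and at 162, 168 and 172 CPM with miR-Exo. With erastin it reached 299.7, 329 and 315 CPM with NPPC-Exo and 326, 338 and 282 CPM with miR-Exo. Every erastin library was above every library without it, and the erastin groups overlapped. The rise was 0.78 ± 0.07 (adjusted p = 5.28e-07) with NPPC-Exo and 0.92 ± 0.07 (adjusted p = 9.62e-08) with miR-Exo. The kinds of exosome did not pass the test without erastin (-0.13 ± 0.07, adjusted p = 0.227), and with erastin the difference was near 0 (0.00 ± 0.07, adjusted p = 0.973; its sign turned under 5 other settings). The effects of erastin differed by 0.14 ± 0.09 (adjusted p = 0.374).

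Ntn1, netrin-1, a cue that attracts axons through DCC and repels them through UNC5 receptors, was near 0 without erastin and measured in every erastin library. It had 12, 4 and 0 counts with NPPC-Exo and 0, 20 and 0 with miR-Exo. With erastin it had 182, 329 and 307 counts with NPPC-Exo and 241, 246 and 220 with miR-Exo. The mean level was 0.0964 ± 0.109 CPM (SD, n = 3) with NPPC-Exo and 0.115 ± 0.200 with miR-Exo, and 4.22 ± 0.98 and 3.52 ± 0.11 CPM with erastin. The log2 change was 5.41 ± 0.88 (adjusted p = 0.00021) with NPPC-Exo and 4.94 ± 0.85 (adjusted p = 0.00032) with miR-Exo. These sizes rest on a few counts: with 1 library left out they ran from 4.83 to 6.76 (highest without the first NPPC-Exo library) and from 4.33 to 10.76 (highest without the second miR-Exo library, which leaves that group at 0), and the call held each time. The kinds of exosome did not pass the test without or with erastin (adjusted p = 0.943 and 0.802). A microRNA gene, AABR07029842.1, overlaps Ntn1 on the opposite strand in the table and had 0 to 2 counts.

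**Figure D2:**
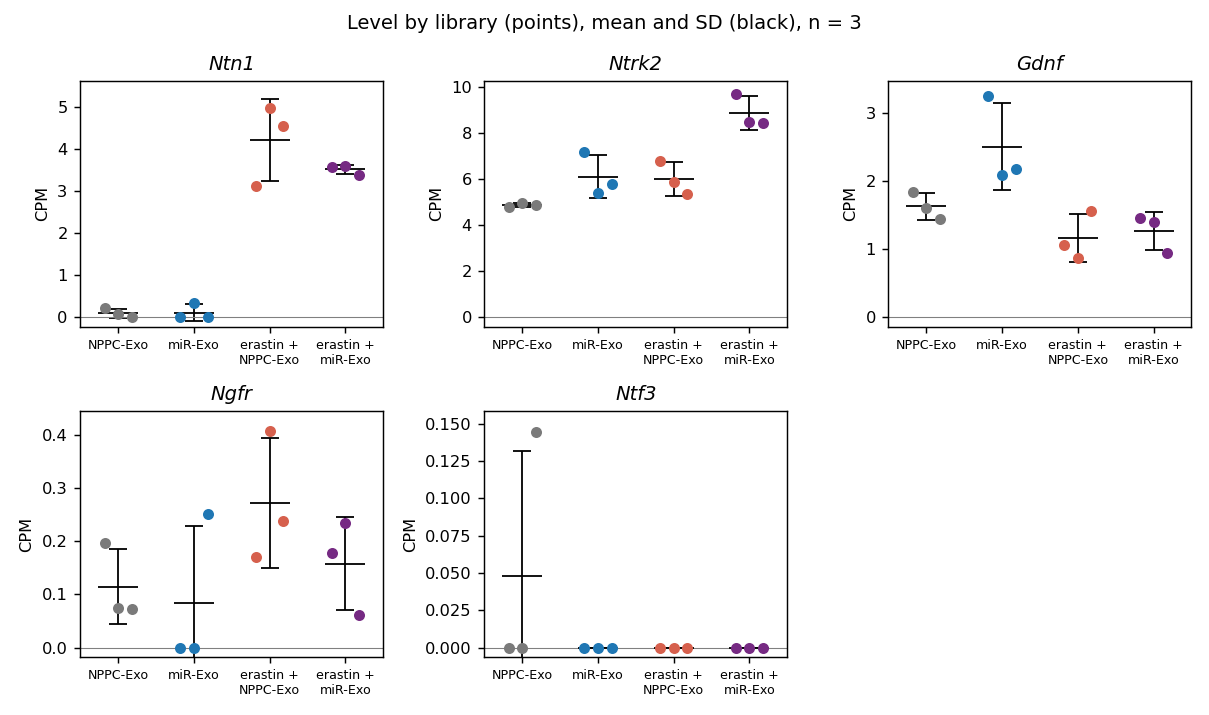
Level of Ntn1, Ntrk2, Gdnf, Ngfr and Ntf3 in each library (y axes: CPM with TMM-scaled totals; x axes: group). Points are libraries (3 per group) and bars the mean ± SD; Ntn1 is near 0 in the libraries without erastin, Ntrk2 is highest with erastin and miR-Exo, and Ngfr and Ntf3 lie under 0.5 CPM throughout.

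Under erastin, miR-Exo against NPPC-Exo thus gave 3 genes higher, Bdnf, Ntrk2 and Slit2, and none lower, where 31.3% of all genes were called, 15.6% higher and 15.8% lower. The erastin effect was called different between the kinds of exosome for 3 of the 8 genes, Bdnf, Slit2 and Sema3a, where 12.8% of all genes were called. In each of the 3 the effect with miR-Exo was the more positive one, which was so for 5.81% of all genes, with 7.01% called the other way. For Bdnf and Slit2 the difference was also seen between the erastin groups, whereas Sema3a differed between the groups without erastin. The plain comparisons share libraries with each other, so their values are set side by side and not taken as separate evidence. Groups did not overlap for 6 of the 8 genes in either erastin comparison (53.6% and 58.4% of all genes), for 5 between exosomes without erastin (28.8%) and for 3 with erastin (48.0%).

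**Figure D3:**
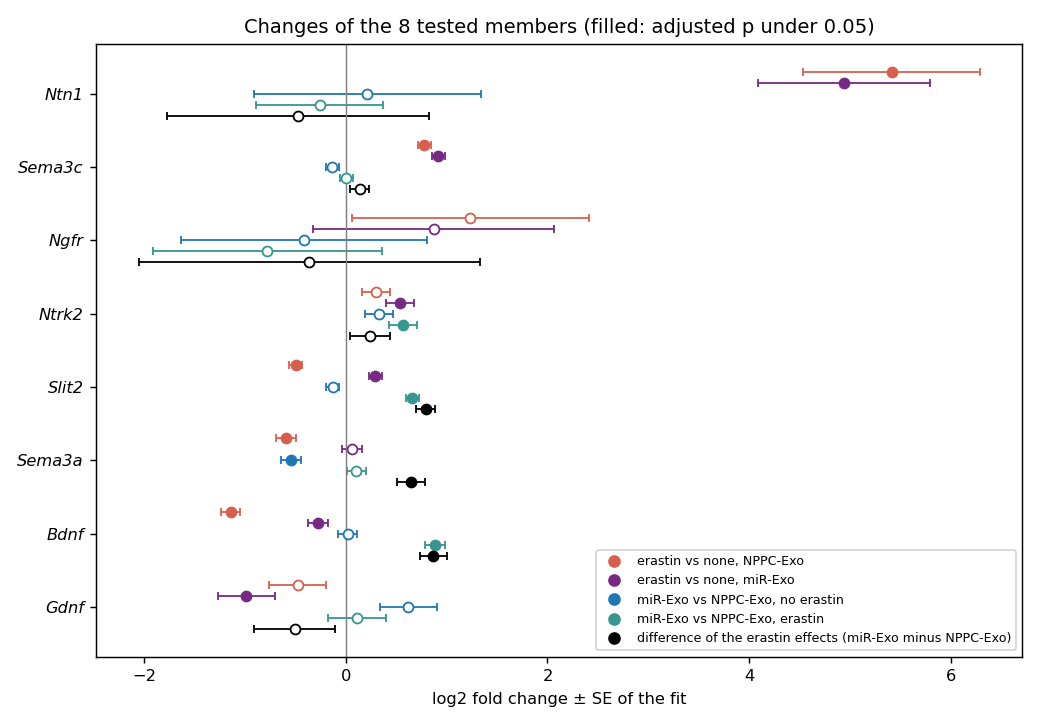
Change of the 8 tested genes in each comparison (x axis: log2 fold change; y axis: gene). Points are the edgeR estimates from 12 libraries, bars ± 1 SE, filled points have an adjusted p under 0.05; Sema3c and Ntn1 lie right of 0 in both erastin comparisons, and Slit2 lies on either side of it.

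Over the 12 libraries the log2 CPM of Ntn1 and Sema3c rose and fell together (Pearson r = 0.93), as did those of Bdnf and Slit2 (r = 0.78), while Gdnf ran against Sema3c (r = -0.74). These are descriptions over 12 libraries in 4 groups and share the group means. Of 11214 genes with at least 1 CPM, the most like Bdnf were Rapgef4 (r = 0.989), Vamp2 (0.987) and Entpd4 (0.978). The genes most like Slit2 were Prickle2 (0.968), Pla2g4a (0.945) and Fcho2 (0.944), and those most like Sema3a included Rnmt (0.938) and Tbc1d8b (0.895). Sema3c was matched most closely by Dek (0.995), Naa15 and Hnrnpu (both 0.994), and Ntn1 by Il2rg (0.986), Adgb (0.969) and Zfp41 (0.963). Likeness was closest for Ntrk2 with Bdh1 (0.949), Fth1 (0.939) and Fst (0.936), and for Gdnf with Tspyl4 (0.931), Stx17 (0.926) and Alkbh5 (0.905). Ngfr, at a few counts, was most like Smad5 (0.874), Miga2 (0.864) and Cnot2 (0.862).

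Of the other genes of these pathways, 112 in 8 lists, 93 were tested. Erastin raised 20 and lowered 27 of them with NPPC-Exo and raised 21 and lowered 34 with miR-Exo, that is 50.5% and 59.1% called beside 43.6% and 49.1% of all genes. The split turns with the scaling: with library size alone it was 33 higher and 19 lower with NPPC-Exo, and 32 and 25 with miR-Exo. The median log2 change of the 93 was -0.02 and -0.09, beside 0.02 and 0.03 of all genes.

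Among 13 other neurotrophin genes erastin raised 2 and lowered 4 with either exosome. Sort1, sortilin, a partner of p75 for the precursor forms of neurotrophins, fell by 1.72 and 1.59 on the log2 scale. Kidins220, a scaffold of Trk receptors, fell by 0.72 and 0.70. Ntrk3, the gene of TrkC, was near 0, with a mean of 0.0992 FPKM. Of the 13, 0 had erastin effects called different between the exosomes at adjusted p under 0.05, where 12.8% of all genes were called. The 6 other Slit and Robo genes had 0 as well.

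The list of GDNF family genes also holds receptors and Gdf15, which is not itself a GDNF family ligand. Of its 5 other genes tested, none passed the test for erastin with NPPC-Exo, and Artn and Gdf15 fell with miR-Exo. Artn, artemin, stood at 1.21 and 1.01 CPM without and with erastin in the NPPC-Exo groups and at 1.74 and 0.475 CPM in the miR-Exo groups. For Gdf15 these levels were 2.24 and 4.11 CPM, and 9.05 and 1.65 CPM. Without erastin Gdf15 was higher with miR-Exo (log2 2.01 ± 0.53, adjusted p = 0.0291; up to 0.114 with a library left out). Under erastin the kinds of exosome did not pass the test for Gdf15 (-1.315 ± 0.53, adjusted p = 0.0774). The receptor Ret averaged 0.119 FPKM over the 12 libraries. Without erastin it had 0, 0 and 16 counts with NPPC-Exo and 78, 59 and 48 with miR-Exo. That difference was called (log2 3.40 ± 0.91, adjusted p = 0.0312), but its adjusted p reached 0.0827 with a library left out. Gfra1, the main co-receptor of GDNF, was not analysed here.

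Class 3 semaphorins and their receptors moved in both directions, with 5 of 12 genes raised and 5 lowered with NPPC-Exo, and 4 and 5 with miR-Exo. Sema3d fell by 1.93 and 1.90 and Sema3e by 1.57 and 1.60 on the log2 scale, opposite to Sema3c. The receptor genes Plxnd1 (2.83-fold and 2.03-fold) and Nrp2 (log2 0.67 and 0.51) rose. Sema3f fell by 0.88 with NPPC-Exo and by 1.79 with miR-Exo, a difference of -0.91 ± 0.20 (adjusted p = 0.0101). Of 16 genes of semaphorin classes 4 to 7, 5 rose and 3 fell in either setting, and Sema6a, a membrane-bound semaphorin, was raised only in the miR-Exo comparison (0.78 ± 0.10, against -0.14 ± 0.10 with NPPC-Exo; difference 0.92 ± 0.14, adjusted p = 0.00185).

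Of 6 other Slit and Robo genes, 1 rose and 3 fell with NPPC-Exo, and 2 rose and 3 fell with miR-Exo. Slit3 fell by 2.63 and 2.60 (log2), beside the -0.50 and 0.29 of Slit2. The Slit receptor Robo2 fell by 1.76 and 1.84, while Robo1 rose by 1.44 and 1.23. Of 11 other netrin pathway genes, 1 rose and 4 fell in either setting. The netrin receptor neogenin (Neo1) fell by 0.88 and 0.66, and Unc5b, at a mean of 59.5 FPKM the highest of the netrin receptors named here, changed by -0.01 ± 0.06 with NPPC-Exo and by -0.72 ± 0.06 with miR-Exo (difference -0.71 ± 0.09, adjusted p = 0.000548). Dcc was not analysed here.

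Of 17 ephrin and Eph receptor genes, 4 rose and 4 fell with NPPC-Exo, and 4 and 6 with miR-Exo, with Epha4 down by 2.58 and 2.25 and Epha2 up by 1.11 and 0.69 (log2). Of 13 other neurotrophic or axon genes, 2 rose and 4 fell with NPPC-Exo, and 3 and 7 with miR-Exo. Reln, a secreted protein that guides migrating neurons, rose by 2.20 and 2.30, and Lingo1, a co-receptor that limits axon growth, fell by 3.01 and 3.14. Nrg1 fell by 0.51 and 1.54 (difference -1.02 ± 0.14, adjusted p = 0.000946).

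**Figure D4:**
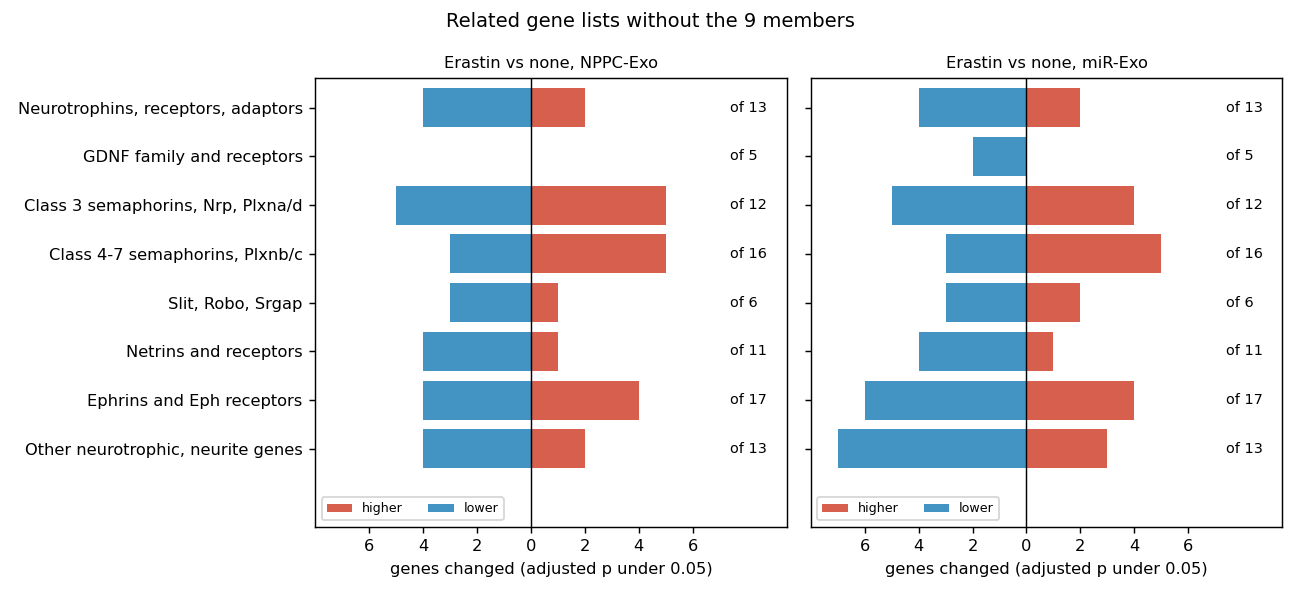
Other genes of 8 pathway lists changed by erastin with NPPC-Exo (left) and miR-Exo (right). Bars to the right count genes higher and bars to the left genes lower at an adjusted p under 0.05 (x axis: number of genes); each list except the GDNF family has calls in both directions in both panels.

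**Figure D5:**
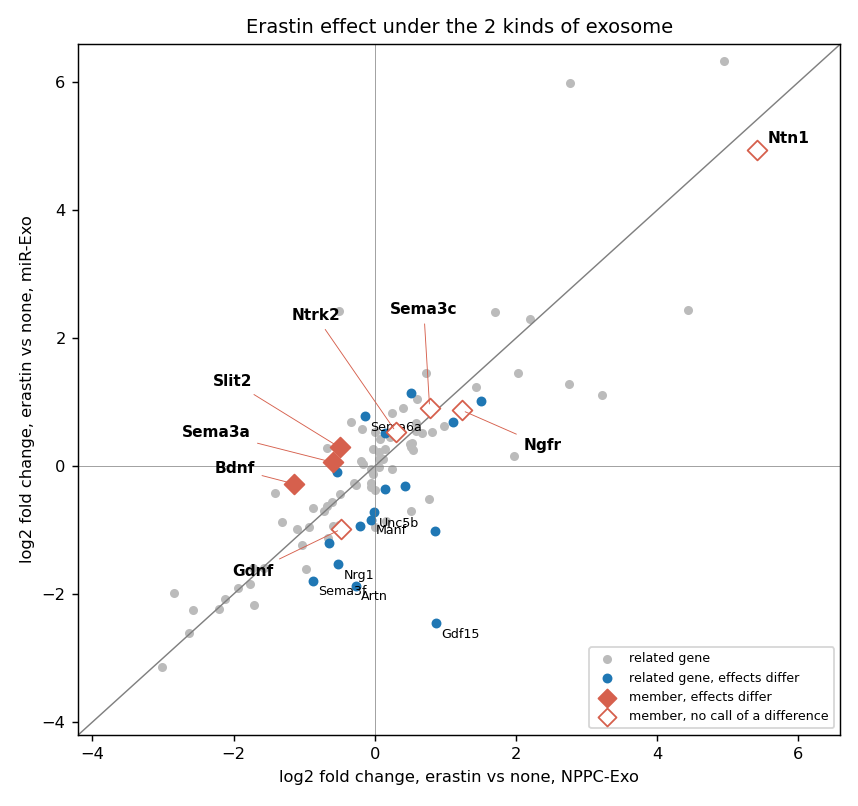
Erastin effect with NPPC-Exo (x axis, log2 fold change) against that with miR-Exo (y axis, log2 fold change) for the 8 tested genes (diamonds) and 93 related genes (circles). Filled diamonds and blue circles have effects called different at an adjusted p under 0.05; Bdnf, Slit2 and Sema3a lie above the line of equal effects, and Nrg1, Unc5b and Sema3f below it.

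Library totals ran from 54616827 to 68865720 counts. Mir221, the gene of the overexpressed microRNA, stood at 0.310 ± 0.009 and 0.352 ± 0.052 CPM (SD, n = 3) in the NPPC-Exo groups without and with erastin, and at 27.7 ± 1.36 and 24.2 ± 0.30 CPM in the miR-Exo groups. The direction is that of the labels, but these are gene counts from RNA of the treated cells. The mature miR-221-3p was not measured separately. Of 14 nucleus pulposus markers 9 were in the table, and their summed level was 944.8 to 1102 FPKM with NPPC-Exo, 1023 to 1196 with miR-Exo, 199.6 to 217 with erastin and NPPC-Exo and 155 to 169 with erastin and miR-Exo. Acan (775 to 134 FPKM with NPPC-Exo) and Col2a1 (190.0 to 51.0) made most of that sum, while Cd24 was higher with erastin (4.02 to 8.79 with NPPC-Exo and 6.13 to 12.6 with miR-Exo). Of 14 neuron markers 13 were in the table and 10 were tested. The 13 summed to 11.7 to 16.2 FPKM over all libraries, with group means of Elavl3, Elavl4 and Snap25 at 0.04 FPKM or less. Within that sum Tubb3 was higher with erastin (2.15 to 5.69 FPKM with NPPC-Exo and 4.40 to 9.65 with miR-Exo) and Map2 lower (7.81 to 1.64 and 7.15 to 1.29), as group means with no test. Of 10 Schwann cell markers 7 were tested, and their sum was 9.09 to 9.61 FPKM with NPPC-Exo, 10.8 to 13.0 with miR-Exo, 7.14 to 7.53 with erastin and NPPC-Exo and 15.1 to 17.4 with erastin and miR-Exo. That order is the one of Slit2 at its top and bottom, and S100b made most of the sum in the last group (14.1 FPKM). S100b was higher with erastin (3.103 to 4.447 FPKM with NPPC-Exo and 6.29 to 14.1 with miR-Exo). Gfap, the largest of these markers with NPPC-Exo alone, was lower with erastin (5.65 to 1.78 FPKM and 5.033 to 0.9433). Gfap was thus lowest in the group where the sum was highest. Of 8 macrophage markers 7 were in the table and 5 were tested. The sum of the 7, mostly Cd14, was 3.80 to 5.79 FPKM without erastin, 7.89 to 10.9 with erastin and NPPC-Exo and 15.1 to 19.4 with erastin and miR-Exo. Cd68 was at 0.327 and 0.797 FPKM without and 0.853 and 2.14 with erastin, and Adgre1 and Aif1 at most 0.0267. Sums of other disc and vessel cell lists were lower with erastin as well. The 7 annulus fibroblast markers, mostly Col1a1 and Postn, summed to 4836 to 6273 FPKM without and 1354 to 2804 with erastin. In that list Dcn was higher with erastin (1.60 to 2.05 FPKM with NPPC-Exo and 2.24 to 15.7 with miR-Exo). The 6 mural cell markers summed to 152 to 165 FPKM without and 57.9 to 60.3 with erastin. Among them Kcnj8 was higher with erastin (0.12 to 0.217 FPKM with NPPC-Exo and 0.107 to 0.22 with miR-Exo). The 5 endothelial markers in the table, mostly Egfl7, summed to 5.42 to 7.00 FPKM without and 1.65 to 4.98 with erastin, with Kdr and Tie1 at most 0.00667. Tek was higher with erastin (0.197 to 0.593 FPKM with NPPC-Exo and 0.267 to 0.647 with miR-Exo), as was Vwf (0.0233 to 0.0733 and 0.0133 to 0.1). The marker levels are FPKM, which lack the TMM scaling of the CPM values. On log2(FPKM + 0.1) the median erastin change of all tested genes was 0.27 with NPPC-Exo and 0.30 with miR-Exo. In the main fit it was 0.02 and 0.03. The part of these marker shifts in the results above was not tested.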

How the data were processed

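Total RNA was extracted with TRIzol and made into strand-marked libraries by the dUTP method, per the labels' protocols. The authors deposited gene counts, not normalized, for 12 libraries. The same deposited table holds FPKM values, scaled by gene length and library size. StringTie and the mRatBN7.2 build are named per the submitters' processing notes; the aligner, the counting tool and their versions were not given in the sources used here. Since the table's coordinates do not settle their build, gene positions are not printed. Of counts from 1 to 20, 57.3% were even, so a setting with halved counts was run.

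Genes with too few counts were removed with filterByExpr, and counts were scaled by TMM (factors 0.877 to 1.15) and fitted with edgeR 4.0.16 (R 4.3.3) on 4 group means over all 12 libraries. Adjusted p-values are Benjamini-Hochberg values over 15650 genes in each comparison, called under 0.05. SE was derived from the log2 fold change and the F statistic. Log2 CPM for likeness used a prior count of 2. The limit of 3 counts set by a count of 0 covers counting error only, whereas SE and SD include the spread between libraries. The fit was tested on simulated data. Settings tried were other scalings, other filters, halved counts, a replicate block, only the groups compared, limma 3.58.1 on log2(FPKM + 1) and log2(FPKM + 0.1), DESeq2 1.42.0, and each library left out.

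The members, lists and tests were chosen with earlier results of these data known. Named are the 9 genes, from each list at most 6 called genes, taken by lowest adjusted p for erastin, and the 3 genes most like each tested member. Genes outside that rule (Ntrk3 and other receptors and markers with their levels) were named after their values were seen. Ret and the genes with differing effects fall under the rule, and were also picked after their values were seen. Some genes under the rule are not reported here.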

Additional observations from a re-analysis of the deposited data

Results flagged for a closer look

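The erastin effect differed between the kinds of exosome, by the interaction term of the edgeR fit (log2, miR-Exo minus NPPC-Exo), for Bdnf (0.867, adjusted p = 0.00185), Slit2 (0.791, adjusted p = 0.000465) and Sema3a (0.647, adjusted p = 0.0104). All 3 calls held when each of 12 libraries was left out and under the other settings run, with adjusted p of at most 0.00852, 0.00257 and 0.0369.

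Of the 93 related genes tested, 17 (18.3%) had effects called different, 4 positive and 13 negative. Over all genes 12.8% were called, 5.81% positive and 7.01% negative. The related genes thus leaned to negative differences, whereas those of Bdnf, Slit2 and Sema3a were positive. Not all of the negative ones are named here. Among related genes the difference was positive for Sema6a (0.922, adjusted p = 0.00185), Efna5 (0.638, adjusted p = 0.0467), Ntn4 (0.446, adjusted p = 0.0205) and Unc5c (0.366, adjusted p = 0.0165). It was negative for Gdf15 (-3.326, adjusted p = 0.0131), Artn (-1.598, adjusted p = 0.0411), Nrg1 (-1.023, adjusted p = 0.000946), Sema3f (-0.91, adjusted p = 0.0101), Manf (-0.78, adjusted p = 0.00297) and Ephb3 (-0.717, adjusted p = 0.0167). Smaller negative differences were called for Unc5b (-0.713, adjusted p = 0.000548), Sema7a (-0.557, adjusted p = 0.0148), Efnb2 (-0.504, adjusted p = 0.000654), Plxnd1 (-0.475, adjusted p = 0.0463) and Epha2 (-0.428, adjusted p = 0.0314). Leaving out 1 library ended the call of Efna5 in 11 of 12 fits, of Artn and Plxnd1 in 9 each, of Epha2 in 8, and of Unc5c and Ntn4 in 4 each. Of 9 other settings, 5 ended the call of Plxnd1 and 2 each those of Efna5 and Unc5c, with adjusted p of at most 0.166, 0.13 and 0.0656 over all settings and fits.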

How the results depend on the processing

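Leaving out each library in turn gave 5971 to 6865 genes for erastin with NPPC-Exo, 6766 to 7878 with miR-Exo, 3784 to 5168 between exosomes under erastin, 970 to 1854 between exosomes without erastin (1669 with all; 970 without the second NPPC-Exo library and 1042 without the second miR-Exo library) and 1205 to 2419 for the difference of erastin effects (2006 with all). That last count was 1218 without the second NPPC-Exo, 1272 without the first miR-Exo, 1205 without the third erastin NPPC-Exo, 1227 and 1300 without the first and second erastin miR-Exo library.

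Library size alone moved the share of higher calls in the erastin comparisons from 49.3% to 77.8% with NPPC-Exo and from 50.4% to 76.4% with miR-Exo, and between exosomes from 38.9% to 68.7% without and from 49.7% to 68.6% with erastin; the median log2 change of all genes moved from 0.02 to 0.30, 0.03 to 0.33, 0.00 to 0.08 and 0.01 to 0.12.

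Directions turned for Bdnf with erastin and miR-Exo (0.027 with library size alone, 0.015 and 0.019 with limma on FPKM), for Maged1 with erastin (0.016 with library size alone and 0.01 with limma in both forms with NPPC-Exo, and 0.004 with miR-Exo), and for Sema3c between exosomes under erastin (-0.009 with RLE scaling and with DESeq2, -0.007 without a filter, -0.002 at 5 CPM, -0.005 with only the groups compared). With 1 library left out, values spanned 0 for Sema3a with erastin and miR-Exo (-0.001 to 0.109), for Bdnf (-0.035 to 0.073), Ngfr (-5.837 to 0.205) and Ntn1 (-5.611 to 1.557) between exosomes without erastin, for Sema3c (-0.071 to 0.057) and Gdnf (-0.08 to 0.363) with erastin, and for the difference of effects of Ntn1 (-1.818 to 5.351) and Ngfr (-0.984 to 5.058); values against a group at 0 depend on the prior count.

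Replicate numbers are shared by the groups but did not pair the libraries: 2 of 18 same-numbered pairs had deviations correlated above 0.1 (-0.166 to 0.275), and 4 of 12 libraries correlated best with their own number. With the replicate block the counts were 6720, 7596, 1560, 4847 and 1928, and no call of the 9 genes changed. The filter at a mean of 5 CPM left no value for Gdnf, Ngfr and Ntn1. Depth limits Ngfr, Ntf3 and the unstressed level of Ntn1.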
